A study of Mus musculus with 2 samples.

Results

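DNA methylation at CpG sites is lost by dilution when a strand is copied unless it is put back on the new strand. UHRF1, encoded by *Uhrf1*, binds CpG sites methylated on a single strand behind the replication fork and recruits the maintenance methyltransferase encoded by *Dnmt1*. *Hells* encodes a SNF2-family chromatin remodeller (also called LSH), and *Cdca7* encodes the zinc finger protein that activates it and brings it to nucleosomes. *Dnmt3a* and *Dnmt3b* encode the methyltransferases that act on unmethylated CpG sites, and *Tet1* encodes a dioxygenase that oxidises 5-methylcytosine. In cortical progenitors the maintenance genes are known for their role in proliferating cells, whereas *Dnmt3a* is known for its role in neurons as well. These 7 genes were taken as the rows of the expression table whose Ensembl ID carries one of these symbols, and all 7 were among its 10666 genes.

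The expression of the 7 genes was read along the cell cycle in single cells of neurospheres, spheres of cultured neural stem and progenitor cells that grow in suspension. Both samples came from dorsal telencephalon of wild-type C57BL/6 mouse embryos at embryonic day 14.5 and were grown and passaged with 10 ng/ml EGF and 10 ng/ml bFGF. The design has 1 condition in 2 replicate cultures, which leaves nothing to test between conditions, and no p-value is given. Cells were not treated as replicates. The sources do not say whether the cultures came from separate litters, so the difference between them is the only measure of spread.

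The table held 5748 cells of culture 1 and 7057 cells of culture 2, with a median of 19477 and 14637 total UMIs (unique molecular identifiers) per cell, and 48 cell barcodes occurred in both cultures. Of 8 neural progenitor markers 7 were in the table, and *Nes*, *Vim*, *Fabp7* and *Slc1a3* were each detected in at least 89.8% of the cells of either culture. *Notch1* was detected in 47.3% and 37.0%, *Hes1* in 44.5% and 50.5% and *Pax6* in 21.1% and 23.1%. Of the oligodendrocyte progenitor markers *Olig2* was detected in 97.3% and 91.9% of cells and *Cspg4* in 11.8% and 13.7%. *Pdgfra* was detected in 8.77% and 1.81% and *Sox10* in 4.26% and 0.751%. Of 7 neuronal markers 2 were in the table, *Dcx*, a marker of young neurons (7.34% and 1.56%), and *Rbfox3* (3.78% and 4.31%). Of 4 astroglial markers 2 were in the table, *Aldh1l1* (43.2% and 28.8%) and *S100b* (18.6% and 6.65%). The cell-cycle position θ is the authors' angle from 0 to 2π for each cell. On this scale S phase begins near 0.5π, G2 and M lie from about π, and G1 and G0 lie around 0. Cells were divided into 8 classes of 0.25π. The class from 1.75π to 2π held 31.1% of culture 1 and 44.6% of culture 2. The classes from 1.25π to 1.75π were thinly filled, with 85 and 64 cells in culture 1 and 279 and 189 in culture 2.

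Promoters are shown first. Each of the 4 genes whose variance position explained most has an E2F-type site in a promoter. The E2F transcription factors are known for driving genes of the G1/S transition. The promoters are those of RefSeq on GRCm38.p6, from 250 bases before to 50 bases after each annotated start, and all 7 genes were matched, some with 2 or 3 starts. The letters searched on both strands were TTTCCCGC, TTTCGCGC, TTTGCCGC and TTTGGCGC. They are in promoter 2 of *Uhrf1*, promoter 3 of *Dnmt1*, numbered in the order of the RefSeq table, and the promoters of *Hells* and *Cdca7*. They are not in the windows of *Dnmt3a* (3 promoters), *Dnmt3b* or *Tet1*. Of all 32851 promoters 2.27% hold these letters, and of all 27025 genes 2.61% have a promoter that does. Stretches of 60 bases around each site follow, in the direction of the gene, with the matched letters in capitals. A site read on the other strand appears as its reverse complement.
*Uhrf1*, chr17:56304102-56304161, plus strand, 185 bases before the start: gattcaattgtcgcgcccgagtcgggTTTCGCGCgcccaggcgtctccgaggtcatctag
*Dnmt1*, chr9:20952809-20952868, minus strand, 219 bases before the start: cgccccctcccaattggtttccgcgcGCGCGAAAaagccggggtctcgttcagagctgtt
*Dnmt1*, chr9:20952574-20952633, minus strand, 33 bases after the start: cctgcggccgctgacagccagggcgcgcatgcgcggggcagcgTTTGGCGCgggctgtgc
*Hells*, chr19:38930902-38930961, plus strand, 62 bases before the start: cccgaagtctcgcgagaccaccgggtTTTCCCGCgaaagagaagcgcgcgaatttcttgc
*Cdca7*, chr2:72476122-72476181, plus strand, 71 bases before the start: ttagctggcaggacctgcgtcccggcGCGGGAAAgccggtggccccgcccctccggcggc
The *Hells* and *Cdca7* stretches hold the same 8 letters, on opposite strands. The *Uhrf1* stretch and the upstream *Dnmt1* stretch also share theirs, again on opposite strands. CCAAT boxes, which 37.4% of all promoters hold, are in both *Uhrf1* promoters and in promoters 1 and 3 of *Dnmt1*, and not in the windows of *Hells* or *Cdca7*. The letters TTTGAA of the CHR element (17.9% of all promoters) are in promoter 1 of *Dnmt1* and in that of *Dnmt3b*. These matches describe letters in the windows and are not measured binding sites. Distances run from the RefSeq start of the promoter that holds the site. By the GENCODE coordinates given below, the matched letters of *Uhrf1*, *Dnmt1* and *Hells* lie inside the gene. Which starts are used in these cells was not measured. The share with E2F-type letters among other genes that vary with position was not counted, and a link to position was not tested. In GENCODE vM21 on GRCm38, *Uhrf1* lies at chr17:56303321-56323486 (plus strand), *Dnmt1* at chr9:20907209-20959888 (minus), *Hells* at chr19:38930915-38971051 (plus) and *Cdca7* at chr2:72476159-72486893 (plus). *Dnmt3a* lies at chr12:3806007-3914443 (plus), *Dnmt3b* at chr2:153649450-153687730 (plus) and *Tet1* at chr10:62804570-62908996 (minus).

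*Uhrf1*, *Dnmt1*, *Hells* and *Cdca7* rose and fell once per cycle in both cultures, whereas position explained little of the variance between cells of *Dnmt3a*, *Dnmt3b* and *Tet1*. To put a number on this, 2 harmonics of θ were fitted to log2(value + 1) of each gene in each culture, where value is the deposited normalised expression, and a gene was counted when R² was at least 0.05 in both. Of the 7 genes 4 passed, where 4.01% of all genes of the table did. R² was 0.496 in culture 1 and 0.472 in culture 2 for *Hells*, 0.370 and 0.345 for *Uhrf1*, 0.337 and 0.277 for *Dnmt1*, and 0.130 and 0.0929 for *Cdca7*. By the lower R² of the cultures *Hells* ranked 26, *Uhrf1* 54, *Dnmt1* 91 and *Cdca7* 263 among all genes. R² was 0.00183 and 0.00472 for *Dnmt3a*, 0.00341 and 0.00163 for *Dnmt3b*, and 0.00185 and 0.00285 for *Tet1*, which is close to the median of all genes (0.00183). The median lower R² of the 7 genes was 0.0929. A gene found in few cells, as *Dnmt3b* was, can vary between classes with a low R² across cells.

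The position was derived from the same cells, so R² of a gene that helped to set it is not independent of it. By the paper the position comes from the most variable genes of the Gene Ontology cell-cycle term. Whether the 7 genes are among them was not known here. In 2 other sets of cell-cycle genes, *Uhrf1*, *Hells* and *Cdca7* are in the S-phase list of Seurat and, with *Dnmt3b*, among the markers of cyclone. *Dnmt1* is in neither of these, which does not show that it had no part in the position. The position was therefore also rebuilt from 500 cell-cycle genes without the 7. Its circular correlation with the deposited position was 0.960, and the same 4 genes passed. R² was then 0.476 and 0.441 for *Hells*, 0.358 and 0.328 for *Uhrf1*, 0.341 and 0.277 for *Dnmt1*, and 0.129 and 0.101 for *Cdca7*. After total UMIs were fitted, the share of the remaining variance that position explained (partial R²) was 0.487 and 0.462 for *Hells*. For *Dnmt1* it was 0.325 and 0.257.

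*Hells* had the widest swing of the 7. Its mean value was 0.0673 in culture 1 and 0.0659 in culture 2 between 1.75π and 2π, 0.537 and 0.667 between 0 and 0.25π, 1.89 and 2.66 between 0.25π and 0.5π, and 2.33 and 3.19 between 0.5π and 0.75π. It then fell to 1.68 and 2.03, to 0.848 and 0.956 and, past 1.25π, to 0.281 and 0.419. The class from 0.5π to 0.75π stood 34.7-fold above the class from 1.75π to 2π in culture 1 and 48.4-fold in culture 2, and on the log2 scale it lay above every other class in both cultures. The transcript was detected, with a value above 0, in 90.7% of cells of the highest class in culture 1 (exact 95% binomial interval 88.3% to 92.7%) and 86.3% in culture 2 (83.01% to 89.1%). Between 1.75π and 2π it was detected in 7.55% (6.36% to 8.87%) and 4.32% (3.64% to 5.09%). These intervals cover counting error only. No cell type known to lack these genes is at hand, so the class from 1.75π to 2π serves as the low reference. Its median total UMIs were 18437 and 13991, against 20253 and 15727 in the class from 0.5π to 0.75π. After every cell was thinned to 10000 UMIs, which left out 353 and 635 shallower cells, *Hells* was detected in 76.4% and 74.9% of cells between 0.5π and 0.75π and in 4.18% and 3.24% between 1.75π and 2π. The part of free RNA in the low class was not tested.

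**Figure D1:**
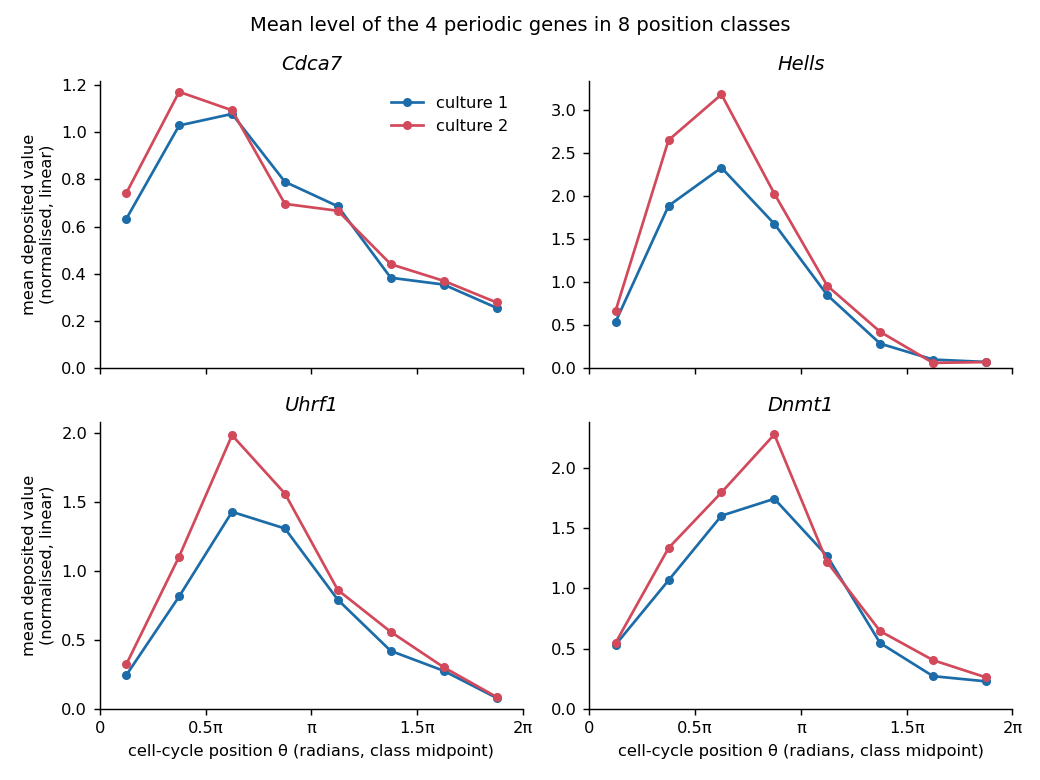
Mean deposited value (normalised, linear) of *Cdca7*, *Hells*, *Uhrf1* and *Dnmt1* in 8 classes of the cell-cycle position θ in radians, 1 point per class and culture. *Cdca7* is high from 0.25π to 0.75π, *Hells* and *Uhrf1* are highest between 0.5π and 0.75π and *Dnmt1* between 0.75π and π, and each is lowest or nearly so between 1.75π and 2π.

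*Uhrf1* reached its highest level in the same class as *Hells* but rose later. Its mean value was 0.0791 and 0.0859 between 1.75π and 2π, 0.244 and 0.322 between 0 and 0.25π, and 0.815 and 1.11 between 0.25π and 0.5π. It reached 1.43 and 1.98 between 0.5π and 0.75π, and was 1.31 and 1.56 between 0.75π and π and 0.791 and 0.862 between π and 1.25π. The highest class was 18.1-fold and 23.1-fold above the class from 1.75π to 2π. The class before 0.75π was above the class after it in both cultures, at 0.822 and 0.932 UMIs per 10000 total UMIs against 0.762 and 0.715, and both lay above all other classes. Between 0.25π and 0.5π *Uhrf1* stood at 57.0% and 55.7% of its highest class, where *Hells* stood at 80.9% and 83.3%. The share of cells with *Uhrf1* was 79.7% (76.5% to 82.6%) and 76.1% (72.3% to 79.7%) between 0.5π and 0.75π, and 8.11% (6.88% to 9.47%) and 5.81% (5.02% to 6.69%) between 1.75π and 2π. Thinned to 10000 UMIs, these shares were 56.8% and 61.3%, and 4.49% and 4.33%.

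*Dnmt1* was highest later still and fell less far between S phases. Its mean value was 0.228 and 0.261 between 1.75π and 2π, 0.532 and 0.548 between 0 and 0.25π, 1.07 and 1.33 between 0.25π and 0.5π, and 1.60 and 1.79 between 0.5π and 0.75π. The highest values, 1.74 and 2.28, lay between 0.75π and π, 7.65-fold and 8.73-fold above the class from 1.75π to 2π, and this class lay above all others in both cultures on the log2 scale. Between π and 1.25π *Dnmt1* still stood at 72.7% and 53.4% of its highest class, where *Uhrf1* stood at 55.3% and 43.4% and *Hells* at 36.3% and 30.0%. *Dnmt1* was detected in 87.2% (84.96% to 89.2%) and 79.7% (76.0% to 82.97%) of cells between 0.75π and π. In the class from 1.75π to 2π it was still found in 22.4% (20.4% to 24.4%) and 15.5% (14.2% to 16.8%). Thinned to 10000 UMIs, the shares were 64.1% and 61.4%, and 13.0% and 10.97%.

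*Cdca7* was the first of the 4 to come near its highest level, and it swung least. Its mean value between 1.75π and 2π was 0.255 and 0.277. Between 0 and 0.25π it already stood at 0.632 and 0.742, which is 58.6% and 63.3% of its highest class, where *Dnmt1* stood at 30.5% and 24.1%, *Hells* at 23.0% and 20.9% and *Uhrf1* at 17.1% and 16.2%. These shares include unlike floors between 1.75π and 2π, 23.6% and 23.7% for *Cdca7* but 2.89% and 2.07% for *Hells*. As a fold over that floor the rise was 2.48 and 2.67 for *Cdca7* and 2.34 and 2.10 for *Dnmt1*. It was larger for *Uhrf1* (3.09 and 3.75) and *Hells* (7.97 and 10.1). The values from 0.25π to 0.5π (1.03 and 1.17) and from 0.5π to 0.75π (1.08 and 1.09) were in opposite order in the cultures. The values past 0.75π were 0.790 and 0.696, then 0.686 and 0.667. The highest class was 4.23-fold and 4.22-fold above the lowest. *Cdca7* was detected in 66.9% (63.3% to 70.3%) and 51.7% (47.3% to 56.1%) of cells between 0.5π and 0.75π, and in 22.5% (20.6% to 24.5%) and 16.6% (15.3% to 17.9%) between 1.75π and 2π. Thinned to 10000 UMIs, the shares were 46.4% and 36.4%, and 14.1% and 12.1%.

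**Figure D2:**
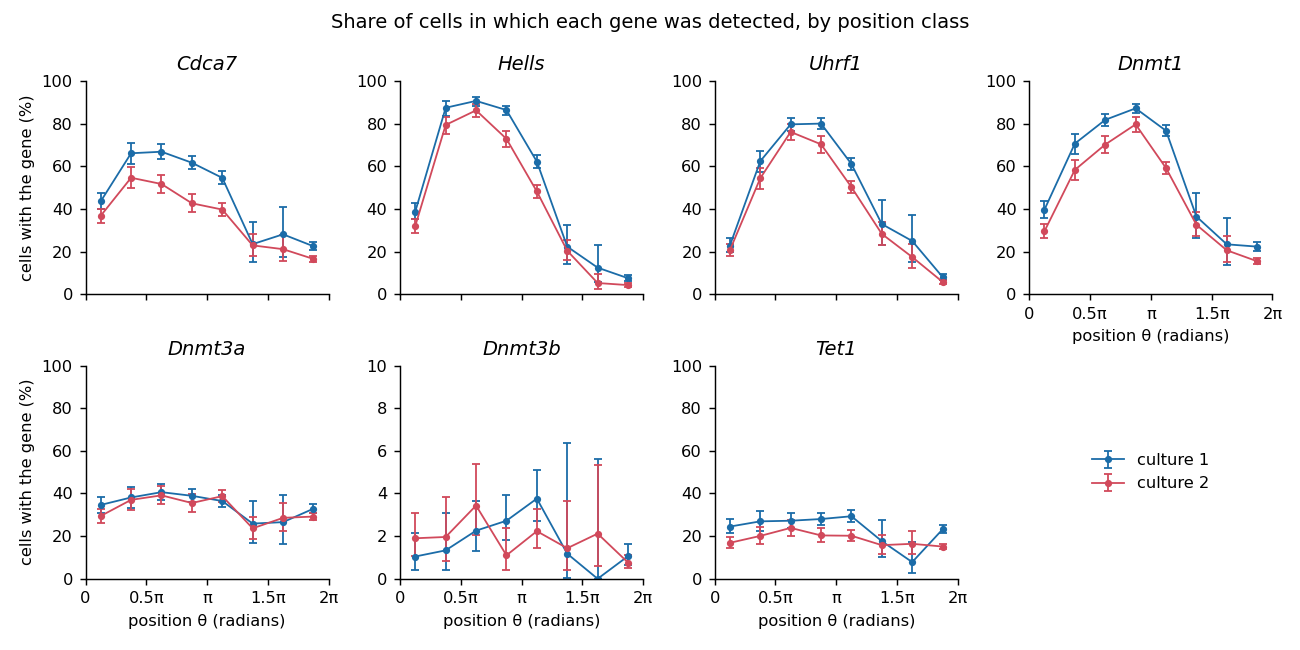
Percent of cells in which each of the 7 genes was detected (y axis, 0 to 100%, and 0 to 10% for *Dnmt3b*) against the position class θ in radians, with exact 95% binomial intervals. *Hells* reaches 90.7% in culture 1 and 86.3% in culture 2, whereas *Dnmt3a* stays between 23.7% and 40.6% and *Tet1* between 7.81% and 29.3%.

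The order of the maxima was read from periodic loess lines. Over both cultures the line of *Cdca7* peaked at 0.48π (0.49π and 0.465π in cultures 1 and 2), that of *Hells* at 0.56π (0.575π and 0.565π), that of *Uhrf1* at 0.685π (0.705π and 0.68π) and that of *Dnmt1* at 0.765π (0.79π and 0.745π). The 4 maxima did not overlap between the cultures. The line ranges, from minimum to maximum of log2(value + 1), were 0.74 for *Cdca7* (0.75 and 0.73), 1.81 for *Hells* (1.71 and 1.92), 1.14 for *Uhrf1* (1.09 and 1.21) and 1.16 for *Dnmt1* (1.137 and 1.195). The midpoint between minimum and maximum was passed on the rise at 0.155π by *Cdca7*, 0.185π by *Hells*, 0.275π by *Uhrf1* and 0.285π by *Dnmt1*. On the fall it was passed at 1.115π by *Hells*, 1.155π by *Cdca7*, 1.21π by *Uhrf1* and 1.275π by *Dnmt1*, where *Cdca7* overlapped with both *Hells* and *Uhrf1* between the cultures. On the rise *Uhrf1* (0.28π and 0.275π) and *Dnmt1* (0.26π and 0.31π) were in opposite order in cultures 1 and 2. With a narrower loess span of 0.1 the maximum of *Dnmt1* lay at 0.915π, and with a wider span of 0.5 those of *Cdca7* and *Hells* coincided at 0.59π.

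Genes of DNA replication give a scale for these positions. *Mcm2* to *Mcm7*, subunits of the replicative helicase, had their line maxima between 0.645π (*Mcm3*) and 0.715π (*Mcm7*), *Pcna*, the sliding clamp, at 0.75π, *Rrm2*, a subunit of ribonucleotide reductase, at 0.85π and *Top2a* at 0.98π. *Cdca7* and *Hells* were highest before all 9 of these genes in both cultures. *Uhrf1* lay among the helicase subunits, and its positions overlapped with those of *Mcm5* and *Mcm6*, both at 0.705π and 0.66π. *Dnmt1* overlapped with *Pcna* (0.765π and 0.74π) and was highest before *Rrm2* (0.855π and 0.845π) at the span of 0.3 used for all these lines.

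**Figure D3:**
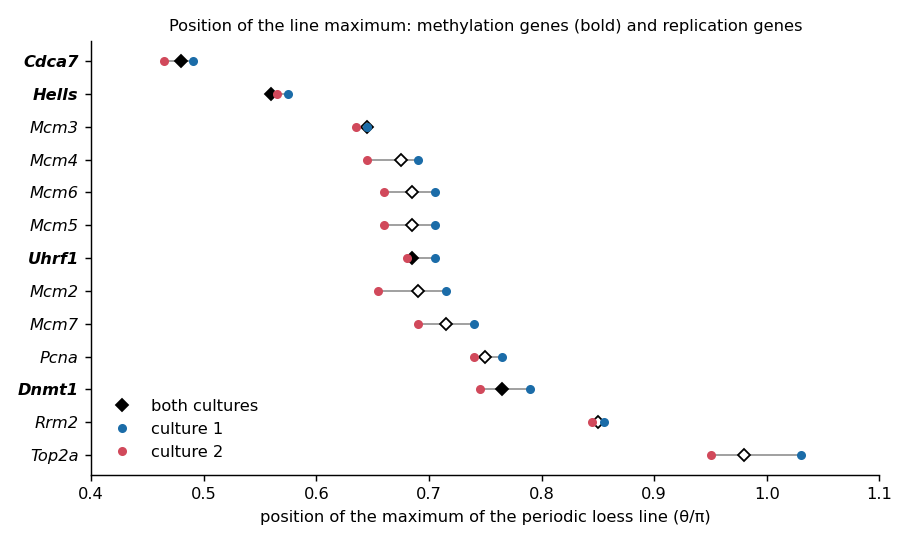
Position θ/π of the maximum of the periodic loess line for *Cdca7*, *Hells*, *Uhrf1* and *Dnmt1* (bold, filled diamonds) and 9 replication genes (open diamonds), with the maximum in each culture as a coloured point. The 4 genes follow in the order *Cdca7* at 0.48π, *Hells* at 0.56π, *Uhrf1* at 0.685π and *Dnmt1* at 0.765π, the first 2 before every replication gene shown.

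The genes most like each of the 4 were sought among the 428 that passed, by the lower of the cultures' Pearson r between mean log2 values over 16 position classes. The values describe likeness along the cycle and all rest on the same cells. For *Uhrf1* they were *Mms22l* (r = 0.973), *Mcm7* (0.968) and *Clspn* (0.968), which act in replication fork repair, the helicase and the replication checkpoint. For *Dnmt1* they were *Pcna* (0.976), *Mthfd2*, a mitochondrial folate enzyme (0.974), and *Smc3*, a cohesin subunit (0.973). For *Hells* they were *Wdhd1*, which links the helicase to DNA polymerase α (0.972), *Wdr76* (0.971) and *Mcm3* (0.971). For *Cdca7* they were *Dtl*, a substrate receptor of the CUL4 ubiquitin ligase (0.945), *Cdc25a*, a phosphatase that activates cyclin-dependent kinases (0.936), and *Wdhd1* (0.914). *Hells* and *Cdca7* had r = 0.953 in culture 1 and 0.921 in culture 2, *Uhrf1* and *Dnmt1* had 0.934 and 0.939, and *Dnmt1* and *Cdca7* had 0.817 and 0.670.

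The balance between the transcripts shifted along the cycle. UMIs per gene were recovered from the deposited values, as described under the processing. They count 3′ ends and are not scaled by transcript length, so only the change of a ratio along the cycle is read. For each UMI of *Uhrf1* there were 2.40 UMIs of *Hells* in culture 1 and 2.30 in culture 2 between 0.25π and 0.5π. This ratio was 1.80 and 1.51 in the next class, 1.37 and 1.23 between 0.75π and π, and 1.13 and 1.03 between π and 1.25π, so it fell at each step in both cultures. Against *Dnmt1*, *Hells* went from 1.87 and 1.99 UMIs per UMI between 0.25π and 0.5π to 0.673 and 0.744 between π and 1.25π. *Cdca7* went the other way against *Hells*, from 0.421 and 0.361 UMIs per UMI between 0.5π and 0.75π to 0.777 and 0.749 between π and 1.25π.

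Within single cells the 4 transcripts were often found together in S phase. Between 0.5π and 0.75π all 4 were detected in 41.0% of cells in culture 1 and 27.1% in culture 2, and none in 0.141% and 0.954%. In the next class all 4 were detected in 41.8% and 19.2% of cells. Between 1.75π and 2π all 4 were detected in 0.0559% and 0.0318% of cells and none in 51.7% and 64.1%. These shares were not thinned to equal depth and were not set against the product of the shares of the single genes. *Hells* was detected in 75.9% and 59.9% of cells with *Uhrf1*, and in 30.0% and 19.3% of cells without it. *Dnmt1* was detected in 76.7% and 59.8% of cells with *Uhrf1*, and in 39.7% and 26.9% of cells without it. Over the 5748 and 7057 cells the Pearson r of log2 values was 0.435 and 0.409 for *Uhrf1* with *Hells*, 0.355 and 0.318 for *Uhrf1* with *Dnmt1*, and 0.306 and 0.226 for *Hells* with *Cdca7*. These cells share a library, and pairs of genes share position and depth. With position and total UMIs taken out, r was 0.0465 and 0.0368, 0.0165 and 0.0215, and 0.0856 and 0.0349.

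**Figure D4:**
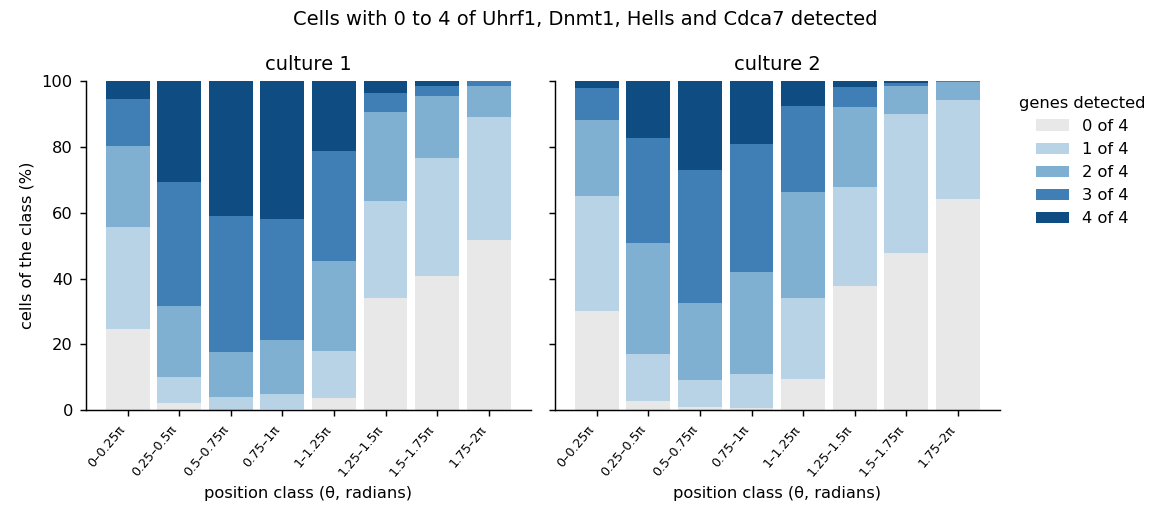
Percent of cells (y axis, stacked to 100%) in which 0 to 4 of *Uhrf1*, *Dnmt1*, *Hells* and *Cdca7* were detected, by position class θ in radians, with culture 1 left and culture 2 right. Cells with all 4 make up 41.0% and 27.1% of the class from 0.5π to 0.75π and 0.0559% and 0.0318% of the class from 1.75π to 2π.

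The methyltransferase transcript *Dnmt3a* was detected in every position class. It was found in 35.9% of cells in culture 1 (34.7% to 37.2%) and 32.2% in culture 2 (31.1% to 33.3%), and its class means lay between 0.308 and 0.529 in culture 1 and between 0.317 and 0.524 in culture 2. The class from 0.5π to 0.75π was 1.13-fold and 1.297-fold above the class from 1.75π to 2π. Its line range was 0.11 on the log2 scale, and the maxima of the cultures lay apart, at 0.555π and 0.795π. *Tet1* was detected in 25.8% (24.7% to 26.95%) and 17.5% (16.6% to 18.4%) of cells, with class means from 0.0839 to 0.285 and from 0.226 to 0.338. The lowest of these rests on 5 cells with the transcript. Its line range was 0.065, with maxima at 1.02π and 0.52π. *Dnmt3b* was detected in 115 cells of culture 1 (2.001%, 1.65% to 2.40%) and 105 cells of culture 2 (1.49%, 1.22% to 1.80%). The share of cells with *Dnmt3b* was 3.76% (2.70% to 5.08%) and 2.23% (1.45% to 3.28%) between π and 1.25π, against 1.06% (0.641% to 1.65%) and 0.762% (0.489% to 1.13%) between 1.75π and 2π. Its mean value was 2.43-fold and 2.17-fold higher in the former class, and between 0.5π and 0.75π it was 1.93-fold and 3.56-fold above the class from 1.75π to 2π. Thinned to 10000 UMIs, the shares were 1.45% and 1.18% between π and 1.25π and 0.728% and 0.598% between 1.75π and 2π. Its line was highest at 1.045π and 0.48π. For these 3 genes the order of the position classes differed between the cultures. In part it also did for each of the periodic genes, so this does not set the 3 apart. The part of free RNA in their shares was not tested.

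The deposited stage calls gave a further reading of the 4 periodic genes. *Dnmt1*, which is in neither marker list of Seurat or cyclone, had mean values of 0.295 and 0.306 in Seurat G1 cells, 1.48 and 1.67 in S cells and 1.36 and 1.195 in G2M cells. *Cdca7*, *Hells* and *Uhrf1* were also highest in Seurat S cells, but they are in the list that makes that call. SchwabeCC gave no stage to 2451 and 3151 cells. Among its stages, the mean value of *Dnmt1* was higher in S (1.55 and 1.49) than in G1.S (1.35 and 1.31). The order was the opposite for *Uhrf1* (1.051 and 0.875 in S against 1.21 and 1.25 in G1.S). So it was for *Hells* (1.73 and 1.44 against 1.98 and 2.26) and *Cdca7* (0.559 and 0.524 against 1.112 and 1.097). The share of cells with *Dnmt1* was not higher in S (76.6% and 52.8%) than in G1.S (77.1% and 54.8%). Cyclone called few cells S, 133 in culture 1 and 56 in culture 2. *Dnmt1* was highest in them (1.81 and 1.75, against 0.797 and 0.680 in G1 and 1.43 and 1.34 in G2M), and so were *Hells* (1.55 and 1.36) and *Uhrf1* (1.18 and 1.13). *Cdca7* was highest in cyclone S in culture 1 (0.726, against 0.618 in G1 and 0.647 in G2M). In culture 2 it was lowest there (0.492, against 0.533 and 0.628). *Hells*, *Uhrf1* and *Cdca7* are among the markers that make the cyclone call. By the paper, cyclone appears to label S-phase cells poorly. SchwabeCC is built from cell-cycle genes too, and its gene list was not used here.

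Levels were also compared between the cultures. Averaged over all cells, the deposited value of culture 1 over that of culture 2 was 1.15 for *Uhrf1*, 1.19 for *Dnmt1*, 1.15 for *Hells* and 1.14 for *Cdca7*. In UMIs per 10000 total UMIs, the levels were 0.419 and 0.291 for *Uhrf1*, 0.615 and 0.386 for *Dnmt1*, 0.637 and 0.393 for *Hells* and 0.385 and 0.267 for *Cdca7*, which gives ratios of 1.44, 1.59, 1.62 and 1.44. In the class from 0.5π to 0.75π these ratios were 0.882, 1.21, 1.054 and 1.23. The share of cells in that class was 12.3% in culture 1 and 7.43% in culture 2. Class by class, UMIs per 10000 were higher in culture 1 in all 8 classes for *Hells* and *Cdca7*. They were higher in 7 classes for *Dnmt1* and in 5 for *Uhrf1*. What part of the difference comes from the shares of cells was not tested. The ratios were 0.872 for *Dnmt3a*, 0.990 for *Dnmt3b* and 1.17 for *Tet1* over all cells. The deposited scale differed by gene and culture. A single UMI of *Hells* in a cell of average depth was worth 0.736 in culture 1 and 1.42 in culture 2, and a single UMI of *Dnmt3a* 0.942 and 1.12. Folds within a culture are free of this factor, and differences between the cultures on the deposited scale are not.

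Other genes of the methylation pathway were read from a list of 58, of which 40 were in the table. Of these 10 passed the same threshold in both cultures, against 4.01% of all genes, and the median lower R² of the 40 was 0.00803. Of 8 partners of the methyltransferases 3 passed. They were *Pcna* (0.596 and 0.430), *Lig1*, the DNA ligase of replication (0.555 and 0.435), and *Smchd1*, which acts on the inactive X chromosome (0.111 and 0.0844). *Lig1* was highest at 0.76π and *Smchd1* at 0.81π. *Cdca7l*, the paralog of *Cdca7*, had R² of 0.0648 in culture 1 and 0.0409 in culture 2 and did not pass.

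Of 9 genes of H3K9 methylation and heterochromatin 4 passed. The H3K9 methyltransferase genes *Suv39h1* (0.0684 and 0.0624, highest at 0.88π) and *Suv39h2* (0.0886 and 0.0915, 0.87π) passed, as did *Cbx5*, encoding HP1α (0.159 and 0.125, 0.855π), and *Cbx1*, encoding HP1β (0.0774 and 0.0634, 1.055π). All 4 maxima over both cultures lay after that of *Dnmt1* at the same span. Of 9 genes of the methyl donor and folate cycle 3 passed. *Shmt1*, a serine hydroxymethyltransferase gene (0.134 and 0.0891), was highest at 0.725π, *Mthfd2* (0.145 and 0.0726) at 0.76π and *Tyms*, the thymidylate synthase gene (0.369 and 0.231), at 0.81π. *Mat2a* and *Ahcy*, which make the methyl donor and clear its product, had lower R² of 0.00873 and 0.0113.

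None of 10 methyl-CpG readers passed, and the highest R² among them was that of *Uhrf2*, the paralog of *Uhrf1* (0.0252 and 0.0339). Its line range was 0.25 on the log2 scale, against 1.14 for *Uhrf1*. None of 4 demethylation genes passed, with *Tdg*, a glycosylase that removes oxidised methylcytosine, at 0.0132 and 0.0141. None of the 11 germline genes of the list was in the table, so they have no values here.

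**Figure D5:**
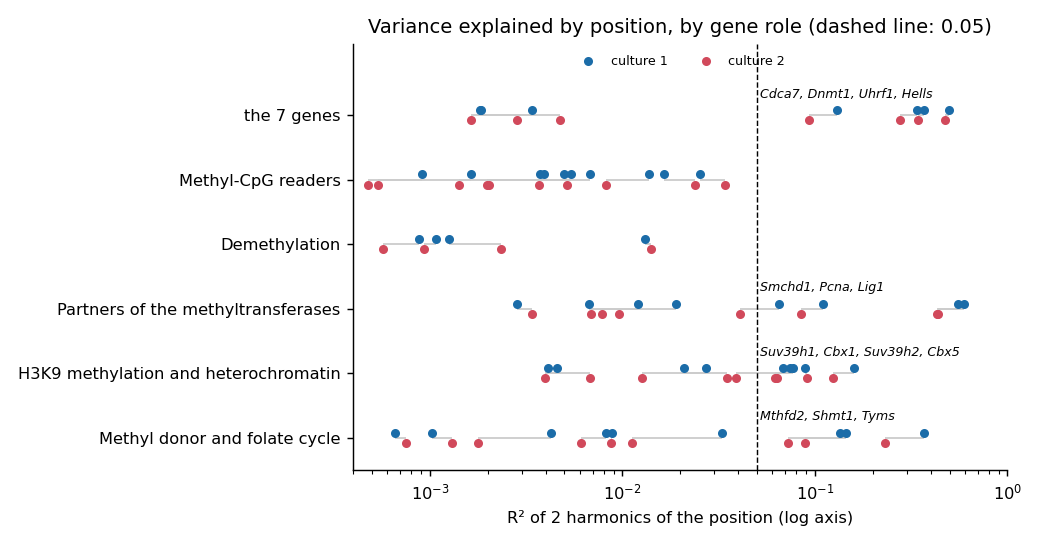
R² of 2 harmonics of the position (log axis) in culture 1 and culture 2 for the 7 genes and for 40 other methylation genes by role, 1 point per gene and culture, with grey lines joining the cultures. The genes named passed 0.05 (dashed line) in both cultures: 4 of the 7, none of the methyl-CpG readers or demethylation genes, 3 of the partners, 4 of the heterochromatin genes and 3 of the folate genes.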

How the data were processed

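Libraries of 2 neurosphere cultures were made with the 10x Genomics Chromium 3′ kit, version 2 by the labels and version 3 by the methods. The authors quantified spliced counts with Alevin (Salmon 1.3.0) against GRCm38, left out cells with outlying depth, gene number, mitochondrial share or doublet score, and normalised for depth per cell. No doublet caller was run here. The deposited expression values are a signal on a linear scale that is never negative. Depth per cell is the authors' sum of estimated counts (total UMIs), with 118762551 in culture 1 and 110527832 in culture 2, so low values are more precise in culture 1. The position and stage calls are the authors' own, and all per-sample columns were assigned to a culture. 

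R² is that of 2 harmonics of the position fitted to log2(value + 1) per gene and culture, with a threshold of 0.05. Lines are periodic loess of degree 2 and span 0.3 on tripled data, read on a grid of 401 positions. At this span the line of *Hells* undershoots to -0.14. A position without the 7 genes came from PCA of 500 cell-cycle genes of the Seurat 5.3.0 and scran 1.30.0 lists. UMIs per gene were recovered because nonzero values were multiples of a step that depends on gene, culture and cell: 98.9% and 99.3% of the low values of 2221 and 2646 genes lay within 5% of a step. For *Dnmt3a* only 76.5% and 75.8% of values were within 0.1 of a whole number. Python 3.11.15, numpy 2.4.6, scipy 1.17.1 and pandas 2.3.3 were used. The fits were also run on deposited values shuffled among cells, with a strong curve added to some genes. That run did not cover weak curves.

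The genes named are the 7, the list genes that passed or had the highest R² of their role, and 9 replication genes. Also named are the 3 genes outside the 7 most like each periodic gene. *Cdca7l*, *Mat2a* and *Ahcy* were added after their values were seen. The 7 genes and the lists were chosen with earlier results of these data known, and 1 gene planned for the lists is not reported here. Alternatives were other spans, pseudocounts, thresholds, depth bands, amounts per cell, the position without the 7 and each culture left out. The use of UMIs per total UMI and thinning were added after seeing the data.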

Additional observations from a re-analysis of the deposited data

How the results depend on the processing

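The 4 periodic genes passed under every alternative but a threshold of 0.1, under which *Cdca7* was lost and 3 passed. Under that threshold 4 in place of 10 list genes and 240 in place of 428 genes of the table passed, and 890 passed at 0.02. The median line maximum of *Uhrf1*, *Dnmt1* and *Hells* (0.685π, SD between cultures 0.0177π) was 0.72π with a span of 0.1, 0.755π with a span of 0.5 and 0.715π for amounts per cell. It ranged from 0.68π to 0.705π when each culture was left out. Their median range (1.16, SD 0.0504) was 1.21 and 0.83 with these spans, 1.67 and 0.75 with pseudocounts of 0.5 and 2, and 1.23 for amounts per cell. With UMIs per total UMI the medians were 0.69π and 1.17. Of 70 values of single genes per measure, 53 line maxima, 33 ranges and 59 R² stayed within the spread between cultures. For line maxima this spread is wide for *Dnmt3a* (0.555π and 0.795π), *Dnmt3b* (1.045π and 0.48π) and *Tet1* (1.02π and 0.52π). The pooled count of maxima therefore overstates how stable those of the 4 periodic genes were. *Hells*, at 0.56π, moved beyond its spread to 0.61π and 0.59π with spans of 0.1 and 0.5. No paired analysis was possible because no result comes from a test between groups, and position classes were compared within each culture. With 2 cultures the SD rests on 2 values, and few cells hold *Dnmt3b*.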
